A study of Sus scrofa with 4 samples.

Results

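The genes described here make cholesterol, move it through the cell, store it as ester, or control those steps through the sterol regulatory element-binding proteins (SREBPs). They were chosen by name, and 26 of the 27 names were found among the 16192 protein-coding genes of the deposited files, CYP51A1 under its older symbol CYP51. IDI1, an isomerase of the mevalonate pathway, was not analysed here. Of the 26 genes, 18 are enzymes, 4 control SREBP activity, and 4 carry or esterify cholesterol. The enzymes belong to the route from acetyl-CoA to cholesterol, except GGPS1, which lies on a branch of it.

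Subcutaneous preadipocytes of neonatal male Chinese Erhualian pigs were grown to confluence (D0), given a cocktail of dexamethasone, IBMX and insulin until D2, insulin alone until D4, and plain growth medium until D8. All 4 groups are cells of the same breed and sex, and differ by stage and by the medium of that stage. RNA of 3 piglets, in equal parts, made up the single library of a stage, so that there is no replicate. Stage and library cannot be told apart, no test compares stages, and the values below describe these 4 libraries.

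Cells make cholesterol in a long chain of reactions. Acetyl-CoA is built up to mevalonate, mevalonate to isoprenoid units, and these to squalene, which is closed into a ring and trimmed to cholesterol. The genes of this chain are classic targets of SREBP-2, a membrane-bound factor encoded by SREBF2. When sterols are low, SCAP escorts it from the endoplasmic reticulum to the Golgi, where proteases release the part that enters the nucleus. When sterols are high, INSIG proteins hold SCAP back. In fat cells much of the cholesterol lies unesterified at the lipid droplet and in membranes.

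Levels are FPKM, fragments on a gene scaled by its length and by the size of the library, which can be compared between genes. Where 4 values of a gene follow each other, they are in the order D0, D2, D4, D8. The library totals behind the FPKM, as computed from the deposited values, lay between 54128151 fragments (D8) and 75387428 fragments (D0). They are not counts of mapped reads, of which the study reports the most for D4. Reliably expressed means an FPKM of 1 or more in 3 or more libraries, which 9191 mRNAs and 25 of the 26 genes reached. The exception was TM7SF2. Ratios are log2(FPKM + 0.01) differences, and a ratio of at least 2-fold in either direction is counted as a call. The 25 genes had at least 343 reads in every library, and the 95% intervals given below come from read numbers and cover counting error only, not the spread between piglets or library preparations.

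The labelled cell type was checked against its markers. The summed FPKM of 8 adipocyte markers was 122, 484, 1716 and 2066, although LEP stayed under 1 in every library. Of 8 preadipocyte or fibroblast markers, 7 were at FPKM of 1 or more at every stage, and CD34 was not. Endothelial markers summed to between 1.16 and 2.65, nearly all of it PECAM1, which was reliably expressed at 2.56, 1.14, 1.70 and 1.87. VWF was listed at 0 at D2, D4 and D8 and CDH5 at 0 at D0, D2 and D8. Macrophage or leukocyte markers summed to between 3.60 and 8.81, most of it CD14, with 3.141, 5.637, 7.542 and 2.775. CD14 and CD163 (0.270, 1.42, 1.01 and 1.38) were reliably expressed, and the other members of that list stayed under 1 throughout. The summed FPKM of smooth muscle or pericyte markers was lowest at D2 and D4, at 6205, 664, 510 and 4810, most of it ACTA2 and TAGLN. CNN1 had 94.3, 4.22, 2.39 and 24.3, and DES had 436, 37.7, 4.05 and 35.7. Compared with D0, 2 of 4 reliably expressed members were at least 2-fold lower at D8, where 3.68% of all mRNAs were. MYH11 and RGS5, members of that list, stayed under 1 throughout. Epithelial markers summed to between 5.19 and 26.3, most of it KRT8, and skeletal muscle and erythroid markers each to under 1. In bulk libraries, fewer cells of a type and less RNA per cell cannot be told apart.

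Most cholesterol genes were highest at D4 and lower again at D8. The 18 enzymes had a summed FPKM of 587, 561, 771 and 421. As a share of the computed library totals this was 0.134% (95% Wilson interval 0.133 to 0.134), 0.128% (0.127 to 0.129), 0.186% (0.185 to 0.187) and 0.0985% (0.0976 to 0.0993). The highest of the 4 values lay at D4 for 18 of the 25 reliably expressed genes, against 37.3% of all reliably expressed mRNAs. The lowest lay at D8 for 14 of 25, against 37.5% of all. Both held for 10 of 25, against 19.5% of all. The highest value lay at D0 for 5 of 25, against 36.5% of all. Over the 4 libraries, the median ratio of highest to lowest was 1.94 (lowest 1.33, highest 3.20), beside 1.64 for all reliably expressed mRNAs.

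**Figure D1:**
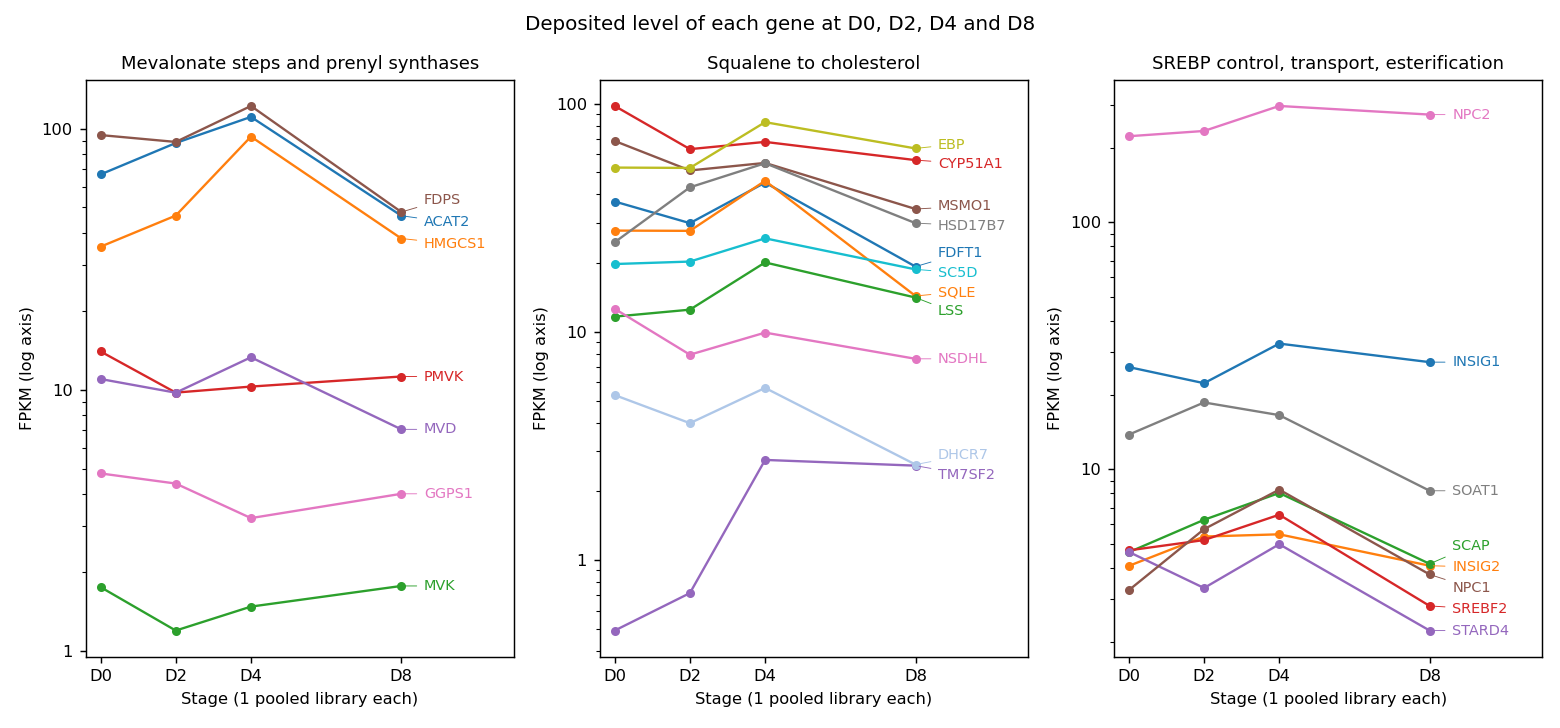
FPKM of the 26 genes on a log axis at D0, D2, D4 and D8, with 1 pooled library per stage and lines joining the values of a gene. Most lines peak at D4 and drop to D8, while PMVK, MVK and GGPS1 were higher at D8 than at D4.

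The first steps, from acetyl-CoA to farnesyl and geranylgeranyl diphosphate, held the gene with the highest ratio of D4 to D0 among the 25. HMGCS1, the cytosolic synthase that makes HMG-CoA (chromosome 16, 27936225 to 27957261, minus strand, Sscrofa11.1), had FPKM of 35.4, 46.5, 93.4 and 38.0. D4 stood apart from the other libraries, which lay close together. ACAT2, the cytosolic thiolase that condenses acetyl-CoA before that step, had 66.9, 88.3, 111 and 46.5 in the same order. FDPS, which makes farnesyl diphosphate, had 94.7, 89.1, 122 and 48.0. For both, D4 was the highest library and D8 the lowest.

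The kinases of mevalonate did not share that shape. MVK, mevalonate kinase, had FPKM of 1.76, 1.20, 1.48 and 1.78. PMVK, phosphomevalonate kinase, had 14.05, 9.77, 10.3 and 11.3. GGPS1, which makes geranylgeranyl diphosphate for protein prenylation, had 4.79, 4.38, 3.23 and 4.003. Each of these was lower at D4 than at D0, and GGPS1 was lowest at D4. MVD, the decarboxylase that closes the mevalonate steps, had 11.01, 9.76, 13.3 and 7.06 and so was again highest at D4 and lowest at D8.

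The enzymes that form, oxidise and close squalene were each highest at D4. FDFT1, squalene synthase, had FPKM of 37.2, 29.9, 45.0 and 19.3. SQLE, squalene epoxidase and a slow step of the pathway (chromosome 4, 14669789 to 14700152, minus strand), had 27.8, 27.7, 45.9 and 14.4. Its ratio of highest to lowest library, 3.20, was the widest among the 25 genes. LSS, which closes the ring to lanosterol, had 11.7, 12.5, 20.1 and 14.1. It was lowest at D0, where FDFT1 and SQLE were lowest at D8.

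The enzymes that trim lanosterol differed among themselves. CYP51A1, the lanosterol demethylase, had FPKM of 97.6, 63.2, 67.9 and 56.5. MSMO1, a sterol C4 oxidase, had 68.6, 50.9, 54.9 and 34.5, and NSDHL, its partner dehydrogenase, had 12.6, 7.94, 9.92 and 7.62. All 3 were highest at D0, and slightly higher at D4 than at D2. HSD17B7, the ketoreductase of the same C4 removal, instead had 24.7, 43.0, 54.8 and 29.9, lowest at D0 and highest at D4.

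EBP, SC5D, DHCR7 and TM7SF2 each had their highest value at D4. For DHCR7 over D0 and for TM7SF2 over D8, counting error covers the margin. EBP, a sterol isomerase, had FPKM of 52.4, 52.2, 82.9 and 63.6. SC5D, a sterol desaturase, had 19.8, 20.3, 25.7 and 18.8. DHCR7, which reduces 7-dehydrocholesterol to cholesterol, had 5.28, 3.98, 5.68 and 2.62. TM7SF2, a sterol reductase whose reaction LBR also carries out, had 0.491, 0.717, 2.75 and 2.59. It rested on 62, 66, 342 and 235 reads, and both late libraries lay above both early ones.

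Of the genes that control SREBPs, SREBF2 (chromosome 5, 6719484 to 6784724, minus strand) had FPKM of 4.70, 5.18, 6.56 and 2.80. SCAP, the escort, had 4.63, 6.26, 8.03 and 4.15. INSIG1, itself a target of SREBPs, had 26.0, 22.4, 32.3 and 27.2. INSIG2 had 4.07, 5.35, 5.46 and 4.08. All 4 were highest at D4, INSIG2 by a margin over D2 that counting error covers. INSIG1 was the more abundant of the INSIG genes in every library, at 6.38, 4.18, 5.92 and 6.67 times the FPKM of INSIG2.

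The genes for transport and storage differed widely in level. NPC2, a soluble lysosomal protein that hands cholesterol to NPC1, had FPKM of 223, 235, 296 and 273, the highest of the 26 genes. NPC1, the lysosomal membrane protein that exports cholesterol, had 3.25, 5.73, 8.29 and 3.76. The ratio of NPC2 to NPC1 was therefore 68.8, 40.9, 35.7 and 72.7. STARD4, a cytosolic sterol carrier, had 4.64, 3.31, 4.98 and 2.23. SOAT1, which esterifies cholesterol, had 13.8, 18.7, 16.6 and 8.20 and was the only gene of the 25 with its highest value at D2.

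Between D0 and D2 the cholesterol genes hardly moved as a group. None of 25 was at least 2-fold higher or lower, where 6.67% of all reliably expressed mRNAs were higher and 10.1% lower. Their median log2 ratio was -0.01, beside -0.03 for all mRNAs, and it changed sign to 0.10 with the same sum over protein-coding genes in each library. The largest values were those of NPC1, 0.82 (95% counting interval 0.71 to 0.94), and HSD17B7, 0.80 (0.73 to 0.87), on the higher side, and of NSDHL, -0.67 (-0.78 to -0.56), and CYP51A1, -0.63 (-0.67 to -0.59), on the lower. At a limit of 1.5-fold, 2 genes were higher, where 15.6% of all mRNAs were, and 2 lower, where 20.1% were. By the rule of 2-fold, 20 of 21 G2/M genes were lower in the same comparison.

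Between D2 and D4, 23 of 25 genes were higher, where 62.5% of all mRNAs were. The median log2 ratio was 0.35, beside 0.09 for all mRNAs. Only HMGCS1 reached 2-fold, with a log2 ratio of 1.005 (0.98 to 1.03) whose interval spans the threshold, where 4.24% of all mRNAs were at least 2-fold higher and 0.838% lower. It was 0.91 with the libraries scaled by their median ratio, under which INSIG2 and PMVK changed sign to -0.06 and -0.01. At 1.5-fold, 6 were higher, where 11.7% of all were. SQLE followed at 0.73 (0.68 to 0.78), LSS at 0.69 (0.63 to 0.75) and EBP at 0.67 (0.61 to 0.72). GGPS1, at -0.44 (-0.55 to -0.33), and SOAT1, at -0.17 (-0.23 to -0.11), were lower.

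Between D4 and D8 the genes were lower together. Of 25, 22 were lower by some amount, where 64.9% of all mRNAs were, and 10 were at least 2-fold lower, where 10.1% of all mRNAs were. None was at least 2-fold higher, where 4.43% of all were. The median log2 ratio was -0.87, beside -0.21 for all mRNAs.

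The 10 genes came from every role, with SREBF2 the only one of those that control SREBPs. SQLE was lowest with a log2 ratio of -1.68 (-1.74 to -1.61), followed by FDPS at -1.35 (-1.40 to -1.30), HMGCS1 at -1.30 (-1.33 to -1.27) and ACAT2 at -1.26 (-1.31 to -1.21). SREBF2 was at -1.22 (-1.33 to -1.12) and FDFT1 also at -1.22 (-1.28 to -1.17). The remaining 4 were STARD4 at -1.16, NPC1 at -1.14, DHCR7 at -1.11 and SOAT1 at -1.02. For 8 of the 10 the counting interval lay wholly past 2-fold, and for DHCR7 and SOAT1 it spanned it. SCAP, at -0.95, and MVD, at -0.92, lay just short of the threshold. GGPS1 at 0.31 (0.20 to 0.42), MVK at 0.26 (0.11 to 0.41) and PMVK at 0.13 (-0.00 to 0.26) were the 3 higher genes. With the libraries scaled to a median ratio of all mRNAs near 0, 6 of 25 were at least 2-fold lower, the median was -0.66, and NPC2 changed sign from -0.12 to 0.09.

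Other values moved over the same interval. Of all reliably expressed mRNAs, 4.43% were at least 2-fold higher, 10.1% at least 2-fold lower, and 3224 of 9191 higher by any amount. Smooth muscle or pericyte markers were higher at D8 than at D4, with 4 of 4 reliably expressed members at least 2-fold higher, and ACTA2 at FPKM of 2907, 324, 225 and 2762 over the 4 stages. Of 6 reliably expressed adipocyte markers, 3 were at least 2-fold lower at D8 and none higher, but the sum of all 8 was higher at D8, with FABP4 at 853 and 1557 and CIDEC, which was not reliably expressed, at 5.01 and 54.6 at D4 and D8. Of 7 preadipocyte or fibroblast markers, 3 were at least 2-fold lower: PDGFRA by a log2 ratio of -1.29, LUM of -1.28 and PDGFRB of -1.26. Of 21 G2/M genes, 18 were higher by some amount and 3 by at least 2-fold. Their part in the lower cholesterol genes was not tested.

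**Figure D2:**
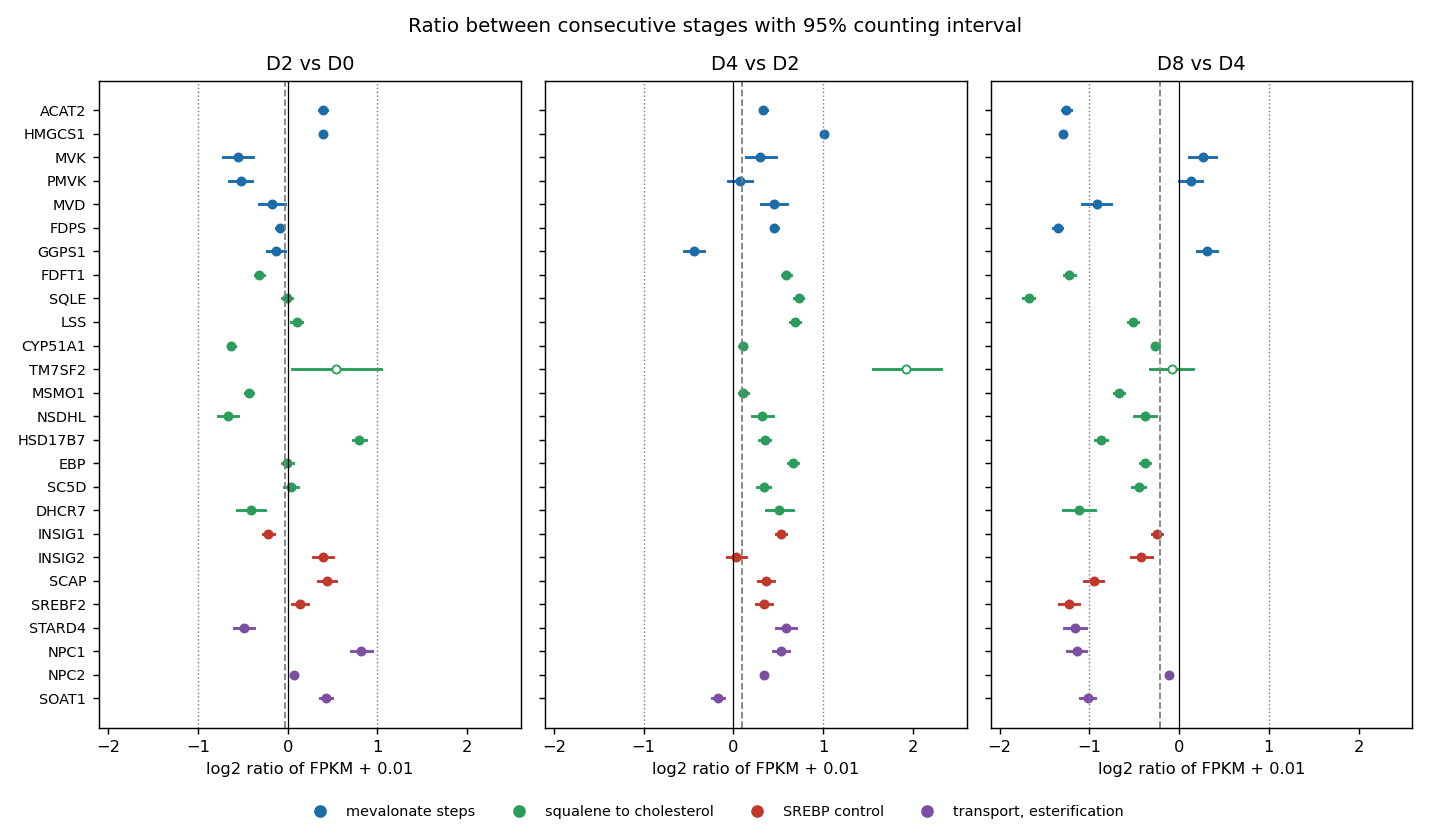
Log2 ratio of FPKM + 0.01 for each gene between consecutive stages, with 95% counting intervals as bars, the 2-fold limits dotted and the median of all mRNAs dashed. The open symbol is TM7SF2, which was not reliably expressed. In the D8 vs D4 panel 10 filled points lie at or beyond the lower limit and none beyond the upper one.

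**Figure D3:**
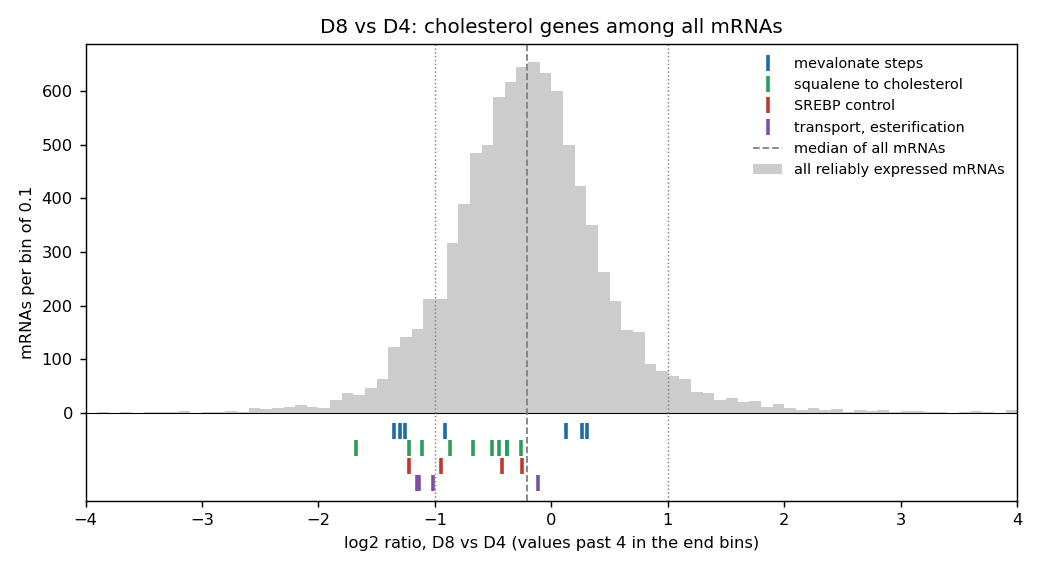
Histogram of the D8 vs D4 log2 ratio over 9191 reliably expressed mRNAs in bins of 0.1, with the 25 genes marked by role as ticks under the axis. The ticks lie mostly left of the dashed median of all mRNAs at -0.21, and 3 ticks, those of PMVK, MVK and GGPS1, lie right of 0.

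Compared with D0, 3 genes were at least 2-fold higher at D4, where 10.4% of all mRNAs were, and none lower, where 8.81% were. They were HMGCS1, with a log2 ratio of 1.40 (1.37 to 1.43), NPC1, with 1.35 (1.25 to 1.45), and HSD17B7, with 1.15 (1.09 to 1.22). The median over the 25 was 0.37, beside 0.06 for all mRNAs. At D8, none was at least 2-fold higher than at D0, where 3.60% of all mRNAs were, and STARD4, at -1.05 (-1.18 to -0.93), and DHCR7, at -1.01 (-1.19 to -0.83), were at least 2-fold lower, where 3.68% were. Both intervals span the threshold, and with median-ratio scaling neither gene reached it. At 1.5-fold, 8 genes were higher at D4, where 22.0% of all mRNAs were, and 11 were lower at D8, where 14.6% were. The 5 comparisons share libraries, so that the high D4 values enter both D4 vs D2 and D8 vs D4.

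Other genes of the sterol pathway were taken from a list of 37 names, of which 33 were found and 25 were reliably expressed. From D4 to D8, 9 of these 25 were at least 2-fold lower, where 10.1% of all mRNAs were, and 2 higher, where 4.43% were. The median log2 ratio was -0.82, beside -0.21 for all mRNAs. Among the 9 were MBTPS1, a Golgi protease that cuts SREBPs, with FPKM of 15.6, 27.5, 30.5 and 13.8 and a log2 ratio of -1.15, and NCEH1, which hydrolyses cholesterol esters, with 8.35, 7.89, 12.7 and 6.13 and a log2 ratio of -1.05. The counting interval of NCEH1 spans 2-fold. Both genes were highest at D4 and lowest at D8, as were 8 of these 25 genes and 10 of the 25 chosen ones. Of all mRNAs, 19.5% had that shape.

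Genes of uptake and breakdown differed among themselves. MYLIP, a ubiquitin ligase that acts on lipoprotein receptors, had FPKM of 1.68, 6.89, 11.4 and 3.23. VLDLR, a lipoprotein receptor, was lowest at D4, with 30.6, 15.2, 10.4 and 29.4. LIPA, the lysosomal lipase that frees cholesterol from its esters, had 4.39, 8.57, 19.1 and 6.92. CYP27A1, a sterol hydroxylase, had 0.297, 1.48, 2.26 and 5.80, higher at each later stage.

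Between the earlier consecutive stages that list held few 2-fold calls. From D0 to D2, 2 of 25 genes were higher (MYLIP and CYP27A1), where 6.67% of all mRNAs were. VLDLR was lower, where 10.1% were, at -1.01 with a counting interval that spans the threshold. From D2 to D4, SCARB1 and LIPA were higher, where 4.24% of all mRNAs were, and none of 25 was lower. SCARB1 was at 1.18, and its counting interval, 0.186 to either side, came down to the threshold. Compared with D0, 5 of 25 were higher at D4, where 10.4% of all mRNAs were, and 1 lower, where 8.81% were. At D8, 1 was higher, where 3.60% were, and 1 lower, where 3.68% were. Of 12 reliably expressed genes of the isoprenoid branch, which uses the same precursors for dolichol, coenzyme Q and protein prenylation, 1 (ICMT) was at least 2-fold lower from D4 to D8, near the 10.1% of all mRNAs, and none higher. ICMT was at -1.03, with a counting interval that spans the threshold. The median log2 ratio of the 12 genes was -0.17, beside -0.21 for all mRNAs. From D0 to D2, 1 (COQ2, at -1.12) was at least 2-fold lower, where 10.1% of all mRNAs were.

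Fatty acid synthesis genes, classic targets of SREBP-1, had another course as a group, though not every member did. Of 12 reliably expressed, 9 were at least 2-fold higher at D4 than at D0, where 10.4% of all mRNAs were. At D8, 8 were higher, where 3.60% of all were, and 1 lower, where 3.68% were. Their median log2 ratio to D0 was 2.56 at D4 and 2.15 at D8. The 17 reliably expressed cholesterol enzymes, GGPS1 among them, had 0.28 and -0.53. From D4 to D8, 1 of the 12 fatty acid synthesis genes (ELOVL6) was at least 2-fold higher, where 4.43% of all mRNAs were. ACACA and GPAM, 2 of the 12, were at least 2-fold lower, where 10.1% were, and the counting interval of GPAM spans the threshold. FADS1, with FPKM of 38.8, 25.6, 27.7 and 20.3, and FADS2, with 29.0, 17.7, 21.6 and 12.9, were highest at D0 and lowest at D8. SREBF1, which encodes SREBP-1, had FPKM of 0.734, 0.970, 3.34 and 2.61. It was under 1 at D0 and D2 and so was not reliably expressed. The ratio of SREBF2 to SREBF1 was 6.41, 5.34, 1.96 and 1.07. Mitochondrial ACAT1, a thiolase of ketone body and isoleucine metabolism, had 108, 113, 87.6 and 149, and its ratio to ACAT2 was 1.61, 1.28, 0.788 and 3.20.

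**Figure D4:**
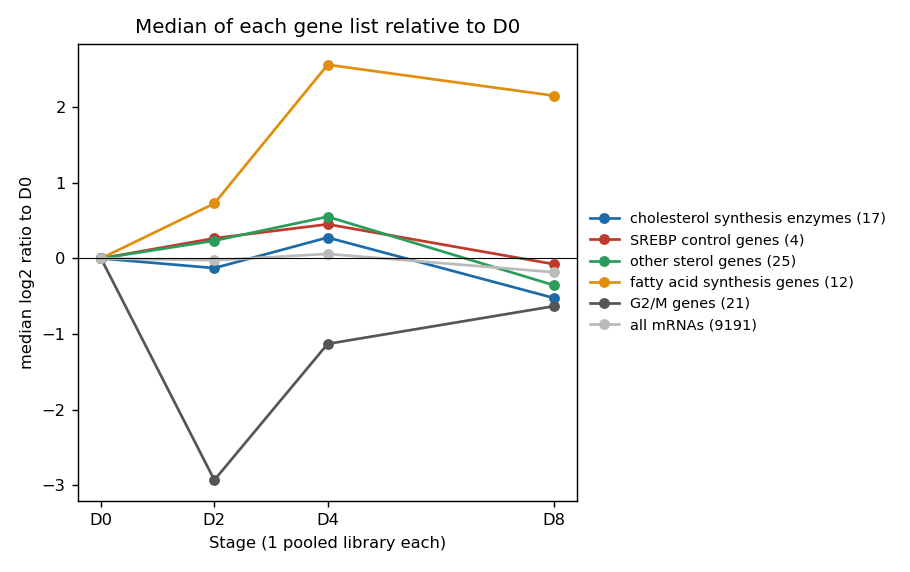
Median log2 ratio to D0 of each gene list at D2, D4 and D8, with the number of reliably expressed genes of each list in brackets. Cholesterol enzymes were at 0.28 at D4 and -0.53 at D8, while fatty acid synthesis genes were at 2.56 and 2.15.

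A long noncoding RNA lay beside one of these genes. Within 50 kb of the 26 genes 19 lncRNAs were listed, and 1 was reliably expressed. The study likewise counted only a small part of all its lncRNAs as reliably expressed. LOC102158687 (chromosome 9, 72079729 to 72161280, plus strand) starts 142 bases from the start of CYP51A1, which lies on the minus strand (72057506 to 72079587). It had FPKM of 3.27, 2.91, 3.72 and 1.02, from 80, 52, 90 and 18 reads. The RNA was lowest at D8, as CYP51A1 was, and CYP51A1 was highest at D0. The lncRNA was highest at D4, by a margin over D0 that counting error covers.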

How the data were processed

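RNA of subcutaneous preadipocytes was measured at D0, D2, D4 and D8, in 1 rRNA-depleted, strand-specific library per stage, pooled from 3 piglets. The authors aligned reads with HISAT2 2.0.5 to Sscrofa11.1 and deposited FPKM for linear genes. CircRNAs were called by the authors with CIRI after BWA-MEM alignment (2 or more junction reads). The same column holds them as SRPBM, junction reads scaled by mapped reads.

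The genes and all lists were chosen with earlier results of these data known. All 26 genes were matched to the RefSeq table of Sscrofa11.1 by symbol, start and end, and LSS lies on an unplaced scaffold. Library totals were computed from the FPKM of miRNA and tRNA genes with 1 read, and read numbers from the shortest whole length that makes the 4 FPKM of a gene whole reads. They may be whole fractions of the true numbers, in which case the intervals are too wide. Their 95% intervals cover counting error only. Calls are ratios of at least 2 on log2(FPKM + 0.01) among mRNAs with FPKM of at least 1 in at least 3 of 4 libraries. With 1 library per stage no test was made. All 26 genes are named, and genes of other lists where a result turns on them. Alternatives were pseudocounts of 0.1 and 1, no filter, other scalings and a ratio of 1.5. Scripts (Python 3.11.15, pandas 2.3.3, scipy 1.17.1) were tested on simulated data. Promoter motifs and protein sequences were not analysed here. Some genes of the wider sterol list are counted but not reported here by name.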

Additional observations from a re-analysis of the deposited data

Results flagged for a closer look

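CircRNAs, formed when a splice site joins to one upstream of it, were not used in the comparisons of the report. Inside 7 of the 26 genes 14 circRNAs were listed on the same strand. At D0, D2, D4 and D8, 1, 5, 9 and 3 of them were above 0, where 3938, 3600, 4185 and 3960 of all circRNAs were. Of the 14, 11 were seen in 1 library, a share that was not computed over all circRNAs. There were 12 with more than the 3 junction reads taken as the limit for a count of 0 (SRPBM of 19.3, 21.8, 17.8 and 25.2 in the order D0, D2, D4, D8). These 12 are given because they lie outside the linear values compared above.

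FDFT1 held the most abundant one. ssc_circ_0006913 (chromosome 14, 14989270 to 14992789, plus strand) had 0, 34, 29 and 14 junction reads in that order, with a highest SRPBM of 247. Linear FDFT1 was lowest at D8 and its value at D0 was above that at D2. FDFT1 also held ssc_circ_0006912, with SRPBM of 29.06 at D2, and ssc_circ_0006914, with 35.62 at D4. In NPC1, ssc_circ_0002962 had 152.6 at D2 from 21 reads and 0 elsewhere, and ssc_circ_0002963 had 29.06 at D2.

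In SQLE, ssc_circ_0002190 reached 35.62 and ssc_circ_0002191 reached 47.49, both at D4. In CYP51A1, ssc_circ_0004821 had 53.43 at D4 and ssc_circ_0004822 had 44.92 at D0. MSMO1 held ssc_circ_0004262 with 47.49 at D4, SOAT1 held ssc_circ_0004530 with 41.56 at D4, and HMGCS1 held ssc_circ_0007745 with 29.68 at D4. Apart from the FDFT1 and NPC1 circles named with their reads, none had more than 9 junction reads in a library.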

How the results depend on the processing

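No paired analysis was possible because each stage has 1 library. The group medians kept their direction under every alternative except from D0 to D2. With a pseudocount of 0.1, 1 gene was at least 2-fold lower from D0 to D8. With a pseudocount of 1, 0 were higher from D2 to D4, 5 lower from D4 to D8 and 0 lower from D0 to D8, since low FPKM are drawn together. Without the filter TM7SF2 entered, which gave 2 genes higher from D2 to D4, 1 higher from D0 to D8 and a median of -0.77 from D4 to D8. With the same sum over protein-coding genes, the median was 0.10 from D0 to D2 and 0.28 from D2 to D4, where 0 genes were higher. With median-ratio scaling, which moved the median of all mRNAs from -0.21 to -0.00 from D4 to D8 and from -0.18 to -0.03 from D0 to D8, 0 genes were higher from D2 to D4 (median 0.26), 6 lower from D4 to D8 (median -0.66) and 0 lower from D0 to D8 (median -0.16). Under that scaling the genes that lost the call from D4 to D8 were DHCR7, STARD4, NPC1 and SOAT1. At a ratio of 1.5, 2 were higher and 2 lower from D0 to D2, 6 higher from D2 to D4, 8 higher from D0 to D4 and 11 lower from D0 to D8. Of 125 log2 ratios, 6 changed sign with median-ratio scaling and 5 with the same coding sum, all with values under 0.12. Depth limits TM7SF2 most, at 62 reads in its lowest library. The spread between piglets was not measured.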
